A study of Homo sapiens with 22 samples.

Results

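The comparison described here is the RNA-seq contrast between Kasumi-1 cells that received FIP1L1 shRNA 2 and Kasumi-1 cells that received a control shRNA, taken across all genes of the deposited count table. It holds 8 of the 12 RNA-seq libraries and of the 22 samples of the series: 4 control and 4 shRNA 2 libraries, chosen by the column names of the table. Kasumi-1, an established cell line from human acute myeloid leukaemia, carries the RUNX1-RUNX1T1 fusion. Both groups were grown in RPMI with FBS, infected with a lentivirus and selected with puromycin, and by the labels they differed in the hairpin that the virus carried, shControl and shFIP1L1-2. The sources used here give neither the time from infection to harvest nor the hairpin sequence. The study lists 4 biological replicates a group and does not say whether they came from separate infections, and a p-value here therefore measures library-to-library spread, which may be technical. FIP1L1 shRNA 2 is 1 hairpin, so what the hairpin does through FIP1L1 and what it does through other transcripts cannot be told apart within these 8 libraries. Of 48162 Ensembl IDs in the table, 14931 passed the filter on low counts and were tested.

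FIP1L1 is a subunit of CPSF, the cleavage and polyadenylation specificity factor. CPSF recognises the AAUAAA hexamer of a nascent transcript, cuts the RNA downstream of it and, with the poly(A) polymerase, adds the tail that a mature mRNA needs for export and translation. FIP1L1 binds U-rich RNA beside the hexamer and tethers the polymerase. Many genes have several poly(A) sites, and the amounts of CPSF, CstF and CFI subunits are known to bear on which of them is used.

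Library totals ran from 12236937 to 19154704 counts in the control and from 15418235 to 19208398 counts with shRNA 2. Expression is in CPM (counts per 1e6 counts of the library, after TMM scaling). Means carry their SD over n = 4 libraries unless each library is listed, and lists of 4 values run from replicate 1 to replicate 4. Log2 CPM correlated at 0.981 or more between libraries of a group and at 0.951 or less between groups. Adjusted p-values are from the edgeR quasi-likelihood F test with the Benjamini-Hochberg adjustment over all 14931 genes, and a gene was called at an adjusted p under 0.05. Most genes named below follow a rule on size or were set in gene lists, and those that do not were chosen after their values were seen and are listed with the processing. The myeloid identity that the label gives was checked first. MPO, the myeloperoxidase of granule-forming myeloid cells, stood at 15670 ± 786 CPM in the control and 9576 ± 1071 CPM with shRNA 2, and the stem cell factor receptor KIT at 1399 ± 58.6 and 1405 ± 41.6 CPM. Of the erythroid and megakaryocyte markers 6 of 22 passed the filter, with a summed level of 38.4 to 49.8 CPM in the control libraries and 38.2 to 43.9 CPM with shRNA 2, and the glycophorin and haemoglobin genes were not among them. Lymphoid and natural killer markers, of which 10 of 23 passed, summed to 249 to 263 and 225 to 237 CPM. Fibroblast, epithelial and endothelial markers, 4 of 16, summed to 122 to 148 and 133 to 142 CPM, with the collagen genes COL1A1 and COL1A2 below the filter. EPCAM carried most of that sum, at 129 ± 10.8 and 134 ± 3.92 CPM, while PDGFRB fell from 3.35 ± 0.995 to 0.709 ± 0.459 CPM (-2.19) and CLDN5 rose from 0.331 ± 0.312 to 1.16 ± 0.732 CPM (1.86), with an edgeR adjusted p of 0.0109, or 0.0555 without shRNA 2 replicate 1. The part of these cell types in the results was not tested. In bulk RNA, fewer cells of a type and less RNA per cell cannot be told apart.

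FIP1L1 itself (ENSG00000145216, chr4:53377643-53460861 on GRCh38, plus strand) was lower in every shRNA 2 library. It stood at 40.9, 37.7, 42.4 and 38.7 CPM in the control libraries and at 19.6, 19.5, 18.5 and 18.1 CPM with shRNA 2. The lowest control library lay above the highest shRNA 2 library, and the log2 change was -1.08 with an SE of 0.083 (edgeR adjusted p = 7.29e-12). The shRNA 2 mean was 47.3% of that of the control. LNX1 overlaps FIP1L1 on the other strand.

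Against that drop, 8798 genes, 58.9% of those tested, were called. The calls were split almost evenly, with 4410 genes higher (29.5%) and 4388 lower (29.4%). Most were small: the median absolute log2 change of a called gene was 0.573, and 2231 of the higher and 2273 of the lower genes moved by less than 1.5-fold. At least 2-fold, 1108 genes (7.42%) were higher and 934 (6.26%) lower. Past 4-fold there were 257 higher and 167 lower. Every shRNA 2 library lay above every control library at 3910 genes (26.2%) and below at 3889 (26.0%). The median change over all tested genes was 0.0037, so gene groups are read below against a centre close to 0. Counts of members higher and lower in each gene list are likewise to be read beside 29.5% and 29.4%. Abundance and direction went together: among the 3733 genes with the highest mean CPM 33.1% were higher and 39.8% lower, while among the 3733 with the lowest 21.9% were higher and 15.6% lower. Protein-coding genes were called more often (31.7% higher and 31.7% lower of 12191) than antisense genes (18.3% and 17.4% of 688), long noncoding genes (23.1% and 21.1% of 711) or pseudogenes (16.6% and 18.5% of 868). The median CPM was 29 for protein-coding genes and 1.52 to 1.98 for the other types, and the part that depth takes in that gap was not tested.

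**Figure D1:**
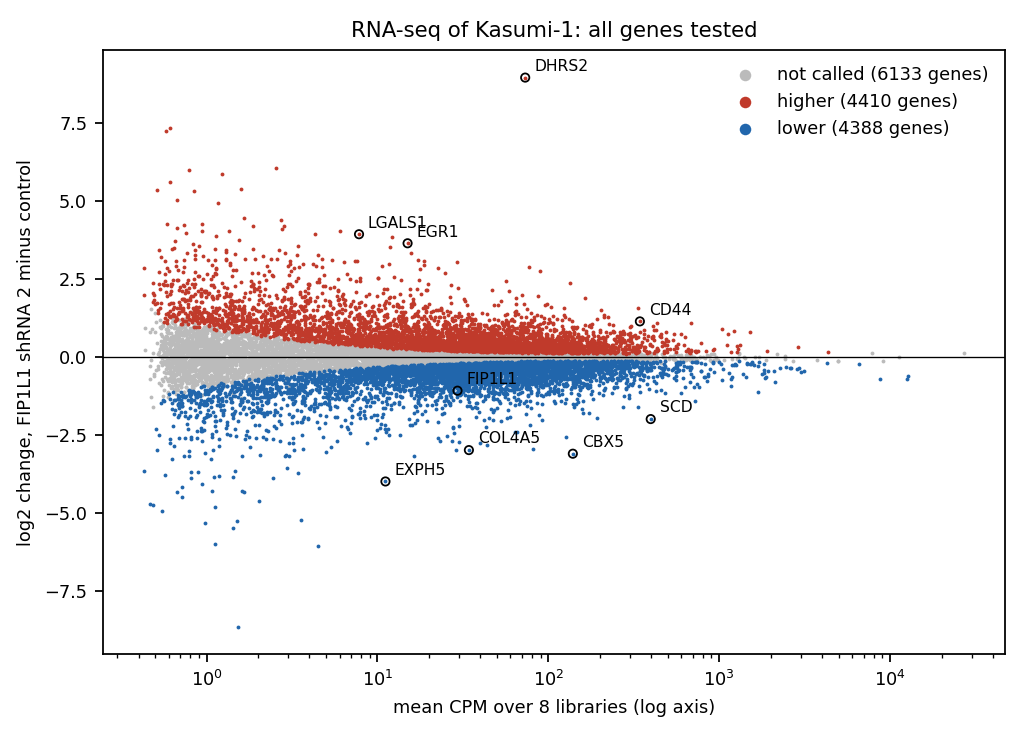
Log2 change between the shRNA 2 and control libraries (vertical axis) against the mean CPM over the 8 libraries (horizontal log axis), 1 point a gene for all 14931 genes tested. Red points are the 4410 genes called higher, blue points the 4388 called lower and grey points the 6133 not called, and DHRS2 stands alone at the top with a log2 change of 8.96.

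The largest rise was in DHRS2, a dehydrogenase of the short-chain family. DHRS2 (ENSG00000100867, chr14:23630115-23645639 on GRCh38) stood at 0.362, 0.496, 0.133 and 0.216 CPM in the control libraries and at 149, 152, 136 and 147 CPM with shRNA 2. It went from close to undetected to the level of a well-expressed gene in all 4 libraries, a log2 change of 8.96 (SE 0.13, edgeR adjusted p = 5.62e-28). The nearest tested genes on either side were not called. JPH4, the nearest upstream, stood at 1.45 CPM in the control and 1.55 CPM with shRNA 2, and DHRS4-AS1, the nearest downstream, at 4.51 and 4.53 CPM.

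At a mean of 5 CPM or more over the 8 libraries, the next largest rise was in EPHA1, an ephrin receptor tyrosine kinase, from 0.652, 1.57, 0.333 and 0.378 CPM in the control to 10.9, 11.3, 11 and 12 CPM, a log2 change of 4.03. The secreted lectin LGALS1 (galectin-1) went from 0.937 ± 0.421 to 14.7 ± 2.59 CPM, a log2 change of 3.94. HCST, the membrane adaptor DAP10 that signals for activating immune receptors, rose from 1.09, 1.32, 1.93 and 1.89 CPM to 23.6, 22.8, 26.9 and 17.8 CPM, a log2 change of 3.84. Every shRNA 2 library lay above every control library in these 3 genes, which was a condition of the choice. EGR1, a zinc finger transcription factor made within minutes of growth factor signalling, rose from 2.03, 2.23, 1.93 and 2.59 CPM to 19.7, 26.4, 34.7 and 30.4 CPM, a log2 change of 3.65. The ATP-gated channel gene P2RX2 rose from 1.89 ± 0.29 to 21.7 ± 1.12 CPM (log2 change 3.53) and AJM1, which encodes an apical junction protein, from 2.92 ± 1.44 to 28.5 ± 3.34 CPM (3.33). RARRES2, which encodes the chemoattractant chemerin, rose from 1.13 ± 0.519 to 9.65 ± 1.17 CPM (3.1). The matrix protein gene CILP2 rose from 3.58 ± 0.598 to 31.1 ± 3.56 CPM (3.1) and AOC3, a cell surface amine oxidase, from 3.98 ± 0.731 to 33.3 ± 2.45 CPM (3.08). The edgeR adjusted p was 3.07e-06 for AJM1 and 5.73e-12 or less for the rest.

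Among the largest falls was a chromatin gene of high abundance. CBX5, which encodes the heterochromatin protein HP1 alpha, stood at 248, 258, 227 and 263 CPM in the control and at 28.1, 27.3, 32.1 and 28.8 CPM with shRNA 2, a log2 change of -3.1 (SE 0.064, edgeR adjusted p = 3.04e-24). The 4 shRNA 2 libraries lay within 5 CPM of each other, far below the control. BCAT1, the cytosolic aminotransferase that starts the breakdown of branched-chain amino acids, fell from 144, 147, 144 and 139 CPM to 17.9, 17.4, 20.9 and 19 CPM (-2.93). MBNL3, a splicing regulator of the muscleblind family, fell from 70.0, 72.5, 64.8 and 71.5 CPM to 10.7, 10.2, 9.9 and 10.4 CPM (-2.76).

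EXPH5, an effector of the vesicle GTPase RAB27, had the largest fall of the genes at 5 CPM or more, from 20.9, 22.4, 20.2 and 20.4 CPM to 1.13, 1.53, 1.43 and 1.15 CPM (-3.99). The basement membrane collagen COL4A5 fell from 60.9 ± 6.45 to 7.7 ± 1.1 CPM (-2.98) and LOX, the oxidase that cross-links collagen, from 51.4 ± 3.63 to 6.52 ± 1.6 CPM (-2.97). MACROD2, which encodes an ADP-ribose hydrolase, fell from 29.6 ± 5.18 to 3.25 ± 0.767 CPM (-3.17). No overlap between groups was a condition of the choice for all 10 falls. The remaining members of the 10 were the long noncoding RNAs SOCS2-AS1 and AC008568.1, and LINC03040, which GENCODE 29 still lists as protein coding. SOCS2-AS1 went from 9.41 ± 0.268 to 1.28 ± 0.273 CPM (-2.88), LINC03040 from 77 ± 10.3 to 11 ± 2.08 CPM (-2.81) and AC008568.1 from 15.1 ± 3.3 to 2.25 ± 0.278 CPM (-2.75). The edgeR adjusted p was 1.28e-12 or less for all 10. SOCS2-AS1 overlaps SOCS2, MACROD2 overlaps FLRT3 and LOX overlaps SRFBP1 on the other strand, and without a stated strand setting their reads cannot be told apart.

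**Figure D2:**
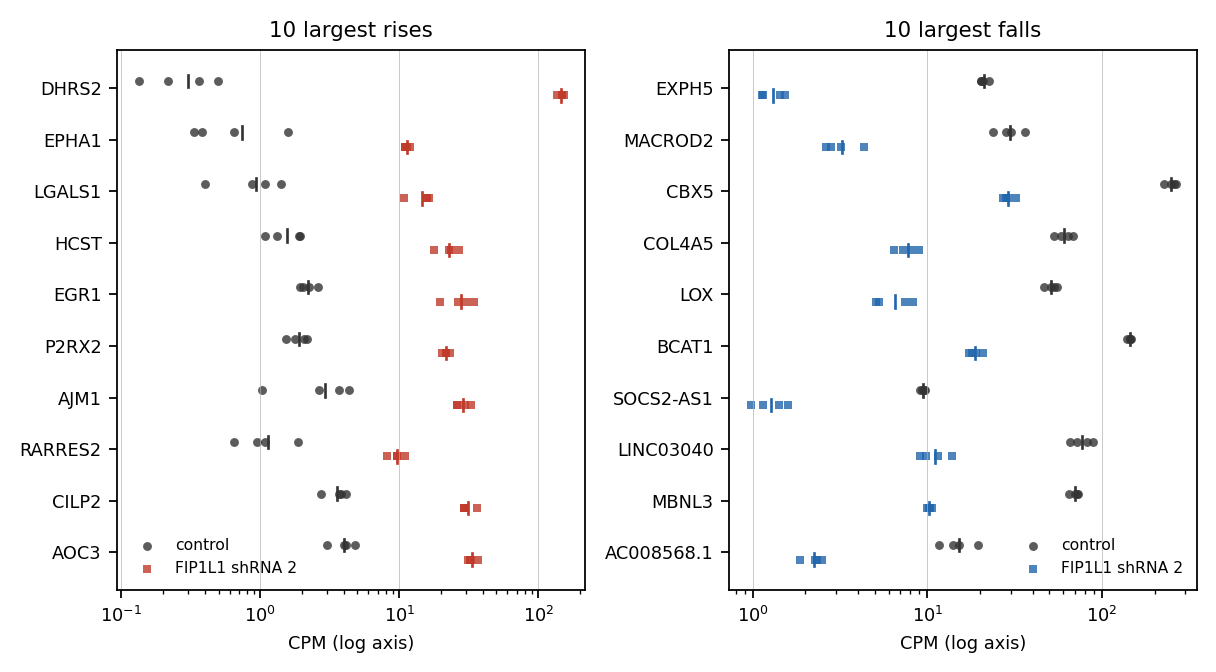
CPM in each of the 4 control libraries (dark circles) and 4 shRNA 2 libraries (coloured squares) for the 10 genes with the largest rises and the 10 with the largest falls at a mean of 5 CPM or more, on log axes, with vertical strokes at the group means. Only genes without overlap between the groups were chosen. DHRS2 goes from under 1 CPM in every control library to over 100 CPM in every shRNA 2 library.

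The next genes are the 6 largest rises and 6 largest falls at a mean of at least 200 CPM. TPM4, a tropomyosin of the actin cytoskeleton, rose from 167, 169.8, 173 and 172 CPM to 507, 511, 494 and 502 CPM, a log2 change of 1.56. The surface glycoproteins CD99 and CD44 rose from 105 ± 11.1 to 299.6 ± 11.3 CPM (1.51) and from 214 ± 15.7 to 472 ± 20.6 CPM (1.14). PPP1R18, an actin-linked regulator of protein phosphatase 1, rose from 119 ± 6.06 to 302 ± 13.9 CPM (1.34). The lysosomal carboxypeptidase CTSA rose from 123 ± 17.7 to 297 ± 23.1 CPM (1.27) and the GTPase gene RABL6 from 132 ± 14 to 318 ± 10.6 CPM (1.27). In the other direction SCD, the desaturase that makes oleate, fell from 649, 704, 571 and 614 CPM to 146, 154, 167 and 173 CPM (-1.99). The related desaturases FADS1 and FADS2, which desaturate polyunsaturated fatty acids, fell from 413 ± 8.41 to 135 ± 11.2 CPM (-1.61) and from 1049 ± 36.2 to 394 ± 40.5 CPM (-1.42), and the transcripts of these neighbours overlap on opposite strands. PYGL, a glycogen phosphorylase, fell from 504 ± 22.3 to 166 ± 5.77 CPM (-1.6). PARP1, the nuclear poly(ADP-ribose) polymerase, fell from 408, 411, 444 and 416 CPM to 169, 171, 169 and 171 CPM (-1.3). The membrane protein gene PLPPR3 fell from 392 ± 39.5 to 166 ± 26.6 CPM (-1.24). No overlap between groups and an edgeR adjusted p under 0.05 were conditions of this choice. The edgeR adjusted p was 2.55e-05 or less for all 12.

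A share of these changes differed in size from what shRNA 1, the other FIP1L1 hairpin of the study, gave. The difference between the hairpins was tested in a fit over all 12 libraries. Of the 14931 genes, 8917 (59.7%) differed between them. The genes in this paragraph were chosen for their change with shRNA 2, whose libraries enter the test of the difference as well, and both hairpins share the control libraries. FIP1L1 itself was lower with shRNA 1, at 15.4 CPM, than with shRNA 2, at 18.9 CPM (shRNA 2 minus shRNA 1 0.35, edgeR adjusted p = 0.00415). DHRS2 with shRNA 1 was at 0.286 to 0.526 CPM, a range that overlaps the control, and the log2 difference between hairpins was 8.57 (SE 0.14, edgeR adjusted p = 2.55e-22). LGALS1 was at 0.557 CPM with shRNA 1 and 0.937 CPM in the control, and the log2 difference between hairpins was 4.8 (edgeR adjusted p = 2.9e-10). COL4A5 was at 58.1 CPM with shRNA 1 and 60.9 CPM in the control, with a log2 difference of -2.86 between hairpins (edgeR adjusted p = 1.93e-15). SOCS2-AS1 was at 10.5 CPM with shRNA 1 and 9.41 CPM in the control, with a log2 difference of -2.98 between hairpins (edgeR adjusted p = 1.21e-11). In both genes the shRNA 2 level was the lower one. AC008568.1 was at 17.4 CPM with shRNA 1 and 15.1 CPM in the control, with a log2 difference of -2.89 between hairpins (edgeR adjusted p = 3.44e-12). PLPPR3 was at 400.5 CPM with shRNA 1 and 392 CPM in the control, with a log2 difference of -1.22 between hairpins (edgeR adjusted p = 5.93e-06). AOC3, with 33.3 CPM with shRNA 2 and 42.5 CPM with shRNA 1, and MACROD2, with 3.25 and 3.01 CPM, did not pass the test of the difference. It was -0.30 at AOC3 (SE 0.13, edgeR adjusted p = 0.05004) and 0.18 at MACROD2 (SE 0.21, edgeR adjusted p = 0.46).

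FIP1L1 belongs to the cleavage and polyadenylation machinery. Of its 25 tested members, 9 were higher and 9, FIP1L1, the knocked-down gene, included, were lower, beside 29.5% and 29.4% of all tested genes, and the median log2 change was -0.098. After FIP1L1 the largest fall was in NUDT21, the small subunit of cleavage factor I, from 188, 196, 192 and 182 CPM to 105, 94.6, 92.1 and 97 CPM, a log2 change of -0.96 (edgeR adjusted p = 7.73e-15). PPP1CB, a phosphatase subunit found in the complex, fell from 209.6 ± 11.8 to 112 ± 9.41 CPM (-0.90). The CPSF subunit CPSF2 fell by 0.31 on the log2 scale, the scaffold SYMPK by 0.23, the poly(A) polymerase PAPOLA by 0.20 and the cytoplasmic poly(A)-binding protein PABPC1 by 0.39. PCF11, which couples cleavage to the end of transcription, had the largest rise, from 90.6, 91.1, 92.6 and 87.9 CPM to 151, 136, 139.7 and 145 CPM (0.66, edgeR adjusted p = 1.86e-11). RBBP6 rose by 0.42, the phosphatase SSU72 by 0.30, the CstF subunit CSTF2 by 0.28 and the CFI subunit CPSF7 by 0.24. The hexamer-binding subunit WDR33 (log2 change -0.11) and the endonuclease CPSF3 (-0.11) were not called. Summed over the list, levels were 6220 to 6310 CPM in the control libraries and 5270 to 5480 CPM with shRNA 2. In the microRNA pathway, 5 of 13 genes were higher and 5 lower, beside the same 29.5% and 29.4%. The exporter XPO5 fell by 0.62, while the silencing scaffolds TNRC6A and TNRC6C rose by 0.88 and 0.69 and TNRC6B fell by 0.43.

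Kasumi-1 cells are arrested as myeloid progenitors, and genes of the stem and progenitor state were mostly lower. Of 25 tested members 14 were lower and 5 higher, beside 29.4% and 29.5% of all tested genes. Their median log2 change was -0.25. TAL1, a helix-loop-helix factor of blood stem cells, fell from 59.6, 56.7, 53.6 and 53.2 CPM to 18.6, 17.5, 19.2 and 18.8 CPM (-1.59, edgeR adjusted p = 4.94e-16). The RNA-binding protein gene MSI2 fell from 142 ± 6.73 to 72.1 ± 1.86 CPM (-0.98), the factor gene MYB from 449 ± 11.5 to 268 ± 15.3 CPM (-0.74) and the surface marker CD34 from 252 ± 37.5 to 172 ± 11.5 CPM (-0.55). SOX4 fell by 0.73 and HOXA10 by 0.69. Not every member went that way. GATA2 rose by 0.48 and the erythroid and megakaryocytic factor NFE2 by 0.85. HOXA9 went from 0.29, 0.579, 0.532 and 0.162 CPM to 1.9, 1.48, 1.59 and 2.37 CPM (2.25), a rise between low levels, and KIT was not called (log2 change 0.0059).

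Among myeloid transcription factors MEF2C fell from 145, 149, 145 and 150.4 CPM to 37.5, 31.6, 39.3 and 36.7 CPM (-2.02, edgeR adjusted p = 3.47e-20), the largest fall of the 13 tested. ID2, an inhibitor of helix-loop-helix factors, rose from 1.74, 1.57, 1.73 and 1.46 CPM to 15.2, 12.6, 12.8 and 14 CPM (3.07, edgeR adjusted p = 8.29e-15). CEBPB, a factor of monocytes and of stressed granulopoiesis, rose from 16.6 ± 2.64 to 26.1 ± 4.32 CPM (0.66). Altogether 6 of these genes were higher and 3 lower, beside 29.5% and 29.4% of all tested genes.

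Monocyte and macrophage genes were read at mostly low levels. The filter removed 11 of the 26 matched members, which can favour members that are high in 1 group, and CD14 and CD68, which define the mature cells, had at most 7 and 1 counts in any library. Of the 15 tested members 10 were higher and 2 lower, beside 29.5% and 29.4% of all tested genes, with a median log2 change of 0.94. The summed level was 137 to 150.0 CPM in the control libraries and 208 to 228 CPM with shRNA 2. LYZ, the lysozyme of monocytes and granulocytes, went from 0.362, 0.496, 0.798 and 0.81 CPM to 7.17, 5.41, 5.4 and 6.79 CPM (3.27, edgeR adjusted p = 4.39e-11). The calcium-binding protein gene S100A9 was at 0 to 0.324 CPM in the control libraries and at 2.18 to 3.17 CPM with shRNA 2. ITGAM, the CD11b chain of the complement receptor, went from 2.75, 3.89, 1.6 and 1.78 CPM to 13.1, 12.1, 13.1 and 14.9 CPM (2.45, edgeR adjusted p = 2.14e-11). FCER1G, the shared Fc receptor gamma chain, rose from 0.297 ± 0.147 to 1.87 ± 0.492 CPM (2.61) and the protease gene CTSS from 34.1 ± 4.7 to 78.5 ± 5.55 CPM (1.2). CYBB, the catalytic chain of the phagocyte oxidase, fell from 3.03 ± 0.734 to 1.34 ± 0.648 CPM (-1.17) and the Fc receptor FCGR1A from 28.8 ± 1.27 to 14.3 ± 1.24 CPM (-1.01).

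In the granulocyte list, which holds granule, receptor and surface protein genes, 5 of 13 tested members were higher and 5 lower, and 3 higher without shRNA 2 replicate 2. Over all tested genes 29.5% were higher and 29.4% lower. MPO fell by 0.71 on the log2 scale, with control libraries at 14955 to 16703 CPM and shRNA 2 libraries at 8086 to 10509 CPM. CEACAM6, a surface protein of granulocytes whose reads may be shared with other CEACAM genes, fell from 46.8, 40.3, 45.6 and 41.4 CPM to 5.74, 6.34, 8.89 and 9.22 CPM (-2.53). The G-CSF receptor CSF3R fell from 418 ± 24.7 to 178 ± 14.6 CPM (-1.23). RNASE2, a granule ribonuclease, rose from 6.33 ± 0.852 to 20.2 ± 2.03 CPM (1.66). Among growth factor receptors, the GM-CSF receptor chain CSF2RA rose from 4.56 ± 1.09 to 14 ± 0.493 CPM (1.59) and IL6R from 5.46 ± 1.65 to 18 ± 0.657 CPM (1.74), while the shared beta chain CSF2RB fell from 88.6 ± 1.8 to 52.5 ± 5.36 CPM (-0.76) and FLT3 from 29 ± 5.41 to 22.1 ± 1.37 CPM (-0.39).

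Adhesion genes were mostly higher. Of 20 integrin, ICAM and tetraspanin genes 12 were higher and 5 lower, beside 29.5% and 29.4% of all tested genes. Their median log2 change was 0.66. The tetraspanin CD82 rose from 7.17, 6.7, 3.33 and 5.13 CPM to 37.7, 39.6, 41.2 and 40.0 CPM (2.85, edgeR adjusted p = 3.63e-14). ITGB2, the beta chain that pairs with ITGAM, rose from 34.5 ± 3.77 to 93.7 ± 2.02 CPM (1.45) and CD53 from 10.8 ± 2.02 to 26.8 ± 2.13 CPM (1.32). ITGA4, the alpha chain of the VLA-4 receptor, fell from 186 ± 8.83 to 96.6 ± 4.49 CPM (-0.95) and ITGAV by 0.79. Signalling adaptors went both ways. Beside HCST, SLA, a damper of receptor signalling, rose from 2.65 ± 0.515 to 20.7 ± 1.22 CPM (2.97). The adaptor CD247 fell from 21.7 ± 1.25 to 10.7 ± 1.54 CPM (-1.03) and LAT2 from 7.01 ± 1.18 to 4.96 ± 0.322 CPM (-0.49). The kinase gene SYK rose from 31.2 ± 2.31 to 50.8 ± 8.2 CPM (0.71). The list of HCST, TYROBP and related signalling genes holds kinases and a phospholipase beside the adaptors. Of its 11 tested members 7 were higher and 3 lower, beside 29.5% and 29.4% of all tested genes. The 3 lower members were all adaptors. FCER1G and TYROBP were under 1 CPM in the control, and the filter can favour members that are high in 1 group.

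Of 16 tested genes of MHC class I and antigen processing 6 were higher and 6 lower, beside 29.5% and 29.4% of all tested genes. Among them the heavy chains HLA-B and HLA-C rose by 0.83 and 0.86, and B2M, their shared light chain, rose from 225, 253, 311 and 319.8 CPM to 597, 589.8, 595 and 574 CPM (1.08, edgeR adjusted p = 2.47e-07). HLA-E fell by 0.49, the peptide transporter TAP2 by 0.60, the immunoproteasome gene PSMB8 by 0.93 and NLRC5, the transactivator of class I genes, by 0.71. MHC class II genes varied among libraries of the same group. HLA-DRA was at 32.3, 37.2, 14.1 and 14.6 CPM in the control and at 122, 93.4, 54 and 37.7 CPM with shRNA 2 (1.68, edgeR adjusted p = 0.0299). Replicates 1 and 2 were above replicates 3 and 4 in both groups, and leaving out control replicate 3, control replicate 4, shRNA 2 replicate 1 or shRNA 2 replicate 2 gave an edgeR adjusted p of 0.0744, 0.0773, 0.0714 and 0.0719. HLA-DRB1 had replicates 1 and 2 above replicates 3 and 4 in both groups as well, and went from 2.97, 3.97, 1.66 and 1.08 CPM to 11.4, 10.0, 5.93 and 4.87 CPM (1.79, edgeR adjusted p = 0.00253), and the peptide loader HLA-DMA went from 5.07, 6.2, 5.25 and 5.61 CPM to 14.5, 12.6, 8.36 and 7.43 CPM (0.96). In all 5 of 9 class II genes were higher and none lower. CIITA, the transactivator of class II genes, was not called, at 64.1 ± 17.6 and 54.4 ± 17.8 CPM (-0.23). CD74 (0.39), HLA-DPA1 (0.77) and HLA-DPB1 (1.01) were not called either. The number higher was 3 when control replicate 4, shRNA 2 replicate 1 or shRNA 2 replicate 2 was left out. It was 3 with a filter of 1 CPM in 4 libraries and 8 without robust estimation of the spread. With replicate number as a block, a pairing that no label states, 8 were higher and 1 lower.

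Genes induced by growth factor and stress signalling were higher in part. Among 23 immediate early genes 12 were higher and 2 lower. Beside EGR1, the AP-1 subunit JUN rose from 23.2, 29.4, 19.2 and 23.6 CPM to 80.8, 88.9, 84.5 and 72.4 CPM (1.78, edgeR adjusted p = 2.86e-13), its partner FOS from 1.43 ± 0.174 to 3.5 ± 1.05 CPM (1.27), and KLF10 from 11.6 ± 2.69 to 32.6 ± 2.22 CPM (1.5). The fast-response genes ARC and FOSL1 fell by 1.13 and 1.05. DUSP6, the phosphatase that switches off ERK and is itself switched on by it, rose from 24.7, 23.7, 19.2 and 23.3 CPM to 159.7, 163, 149.9 and 149 CPM (2.77, edgeR adjusted p = 2.35e-22). With shRNA 1 DUSP6 was at 20.1 CPM, and the difference between hairpins was 3.0 (SE 0.088, edgeR adjusted p = 1.09e-17). Other ERK feedback genes moved less: DUSP4 rose by 0.82, SPRED2 by 0.47 and SPRY2 by 0.39, and 6 of 14 were higher and 2 lower. Of 20 NF-kB and inflammatory genes 10 were higher and 3 lower, beside 29.5% and 29.4% of all tested genes. The filter can favour members that are high in 1 group. Some members, TNF among them, were under 1 CPM in every control library. TNF was at 0.248 to 0.798 CPM in the control libraries and at 2.51 to 3.97 CPM with shRNA 2 (2.45). Also higher were the deubiquitinase gene TNFAIP3 from 9.39 ± 1.63 to 18 ± 1.75 CPM (0.94) and BIRC3 from 0.994 ± 0.0936 to 2.46 ± 0.947 CPM (1.31). SOD2, a more abundant member, fell from 136.5 ± 2.51 to 81.8 ± 2.29 CPM (-0.74), and none of the NF-kB subunit genes was called. Among interferon-stimulated genes 9 of 32 were higher and 6 lower against 29.5% and 29.4% over all tested genes.

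In the NOTCH pathway, NOTCH3 fell from 18.8, 18, 18.3 and 11.3 CPM to 2.0, 3.06, 3.49 and 2.31 CPM (-2.6, edgeR adjusted p = 4.52e-12) and RBPJ, the DNA-binding partner of NOTCH receptors, from 247 ± 23.1 to 116 ± 1.06 CPM (-1.09). HES1, a target of that pair, rose from 1.52, 1.9, 1.06 and 1.24 CPM to 8.35, 7.05, 5.13 and 3.72 CPM (2.1, edgeR adjusted p = 1.08e-07). Other target genes did not rise with it. NRARP fell from 43.4 ± 4.33 to 23.6 ± 0.896 CPM (-0.88) and DTX1 from 1.06 ± 0.508 to 0.348 ± 0.142 CPM (-1.56), and HEYL was not called (0.10). Of the 17 pathway genes tested 5 were higher and 7 lower, beside 29.5% and 29.4% of all tested genes.

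Sterol synthesis genes fell together. Cells make cholesterol from acetyl-CoA through mevalonate, and SREBP2, the product of SREBF2, drives the genes of the pathway when sterols are low. Of 26 tested genes 25 were lower and 0 higher, against 29.4% and 29.5% of all genes, and the median log2 change was -0.66. Their summed level was 3250 to 3300 CPM in the control libraries and 1900 to 2050 CPM with shRNA 2. SREBF2 itself fell from 502, 502, 470.1 and 493 CPM to 249, 259, 279 and 284 CPM (-0.88, edgeR adjusted p = 3.97e-14). At the entry to the pathway HMGCS1, the HMG-CoA synthase, fell from 172, 186, 188 and 193 CPM to 67.8, 65.2, 66.4 and 67.5 CPM (-1.47, edgeR adjusted p = 9.88e-19). In the mevalonate steps MVD fell by 0.73, IDI1 by 0.59 and FDPS by 0.47. Among the sterol steps LSS, which closes the ring, fell from 148 ± 10.8 to 70.3 ± 6.63 CPM (-1.07), the demethylase CYP51A1 from 14.6 ± 2.36 to 3.82 ± 0.907 CPM (-1.94), MSMO1 by 1.22 and DHCR7, a late enzyme, from 232 ± 14.3 to 88 ± 11.1 CPM (-1.4). HSD17B7 was the member not called (-0.24).

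Fatty acid synthesis followed in most but not all genes: 12 of 17 were lower and 2 higher, beside 29.4% and 29.5% of all tested genes. The median log2 change was -0.38. FASN, the fatty acid synthase, fell from 2583, 2378, 2175 and 2113 CPM to 987, 1013, 1062 and 1146 CPM (-1.14, edgeR adjusted p = 1.07e-14), ACLY, which supplies its acetyl-CoA, from 612 ± 17.9 to 296 ± 17.4 CPM (-1.05) and the elongase ELOVL6 from 32.2 ± 1.06 to 17.4 ± 0.638 CPM (-0.89). The members that rose were the acyl-CoA synthetase ACSL1, from 49 ± 2.97 to 96.3 ± 7.04 CPM (0.98), and SCD5, the other stearoyl-CoA desaturase, from 34.1 ± 1.65 to 52.9 ± 1.62 CPM (0.63). Outside synthesis NPC2, which carries cholesterol out of the lysosome, rose from 30.4 ± 4.17 to 98.2 ± 5.64 CPM (1.69), and NR1H3, the sterol sensor LXR alpha, fell from 10.0 ± 1.16 to 6.61 ± 0.761 CPM (-0.60).

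Lysosomal genes were mostly higher. The lysosome holds the acid hydrolases that digest proteins, glycans and lipids, and the V-ATPase acidifies it. Of 44 tested members 31 were higher and 6 lower, with a median log2 change of 0.46 and a summed level of 5020 to 5740 CPM in the control libraries and 7190 to 7640 CPM with shRNA 2. HEXA, the alpha subunit of hexosaminidase, rose from 11.9, 13.2, 15.8 and 11.2 CPM to 22, 26.1, 25.9 and 26.3 CPM (0.95, edgeR adjusted p = 2.43e-08). CTSA stood at 119, 104, 147 and 123 CPM in the control and 268, 298, 325 and 299 CPM with shRNA 2. The membrane glycoprotein LAMP1 rose from 210.3 ± 21.7 to 348 ± 3.51 CPM (0.72), the saposin precursor PSAP from 848 ± 65 to 1411 ± 49.3 CPM (0.73) and progranulin, GRN, from 354 ± 23.8 to 620.1 ± 35.2 CPM (0.81). V-ATPase subunits ATP6V1A and ATP6V0D1 rose by 0.97 and 0.93, the calcium channel MCOLN1 by 0.41 and the regulator TFE3 by 0.85. Lower members included the protease CTSC (-0.43) and the lipase LIPA (-0.39). Of 34 autophagy genes 17 were higher and 8 lower, beside 29.5% and 29.4% of all tested genes. The receptor gene OPTN rose from 10.3 ± 0.554 to 28.4 ± 1.57 CPM (1.46) and GABARAPL1 by 1.26, while MAP1LC3B fell from 32.4 ± 3.75 to 16.6 ± 1.32 CPM (-0.96) and the conjugating enzyme ATG7 by 0.89.

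Promoter sequences of 3 groups that moved mostly in 1 direction are shown because short motifs are known in them: the CLEAR core TCACGTGA of lysosomal genes, the CCAAT box of sterol and mitotic genes and the CHR element TTTGAA of mitotic genes. The 250 bases before each RefSeq start were searched on both strands. The RefSeq promoter table (GRCh38.p14) held 27305 promoters, 10491 of them matched by symbol to tested genes. CLEAR core matches stood in 6 of 29 lysosomal promoters (20.7%), against 0.89% of all promoters and 1.79% of those of tested genes. The shorter E-box CACGTG, which every CLEAR core match contains, was in 10 of the 29 (34.5%), against 6.49% and 9.16%. Of the 6 genes with the CLEAR core, MCOLN1, LAMP1, CTSA, GAA and ATP6V0D1 were higher and ATP6V1G1 was not called (0.10). A CCAAT box was in 15 of 20 sterol promoters (75%) and in 23 of 30 mitotic promoters (76.7%), against 33.0% of all and 34.9% of tested promoters. CHR was in 15 of the 30 mitotic promoters (50%), against 13.6% and 8.41%. The sterol regulatory element of SREBP proteins, searched as TCACNCCAC, was in 1 of the 20 sterol promoters, that of SREBF2 (5.0%), in none of 16 fatty acid promoters, and in 0.875% of all promoters. A match describes the letters of the window only. The windows below run 5′ to 3′ on the strand of the gene with the match in capitals, and in HMGCS1 and MVD the capitals ATTGG are the CCAAT box read on the other strand.
CTSA (chr20:45891299-45891326, plus strand): gcgccggagtTCACGTGActcgtacaca
MCOLN1 (chr19:7522572-7522599, plus strand): ccagaggcggTCACGTGAggggctctgg
LAMP1 (chr13:113297200-113297227, plus strand): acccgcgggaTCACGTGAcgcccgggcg
ATP6V0D1 (chr16:67481200-67481227, minus strand): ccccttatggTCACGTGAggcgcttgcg
SREBF2 (chr22:41832962-41832990, plus strand): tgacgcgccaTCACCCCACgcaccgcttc
HMGCS1 (chr5:43313553-43313577, minus strand): tttccttttgATTGGtagaagccgg
MVD (chr16:88663236-88663260, minus strand): gatcccgtccATTGGctgagaggta
KIF23 (chr15:69414284-69414309, plus strand): gattggcccgTTTGAAatgcgccagg
PRC1 (chr15:90994540-90994565, minus strand): cgtggcgcggTTTGAAattttgcggg
MKI67 (chr10:128126455-128126480, minus strand): agcgccagaaTTTGAAtcttcgtttt
CENPA (chr2:26786028-26786053, plus strand): gagcgagcgaTTTGAAcgcgagcggc

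**Figure D3:**
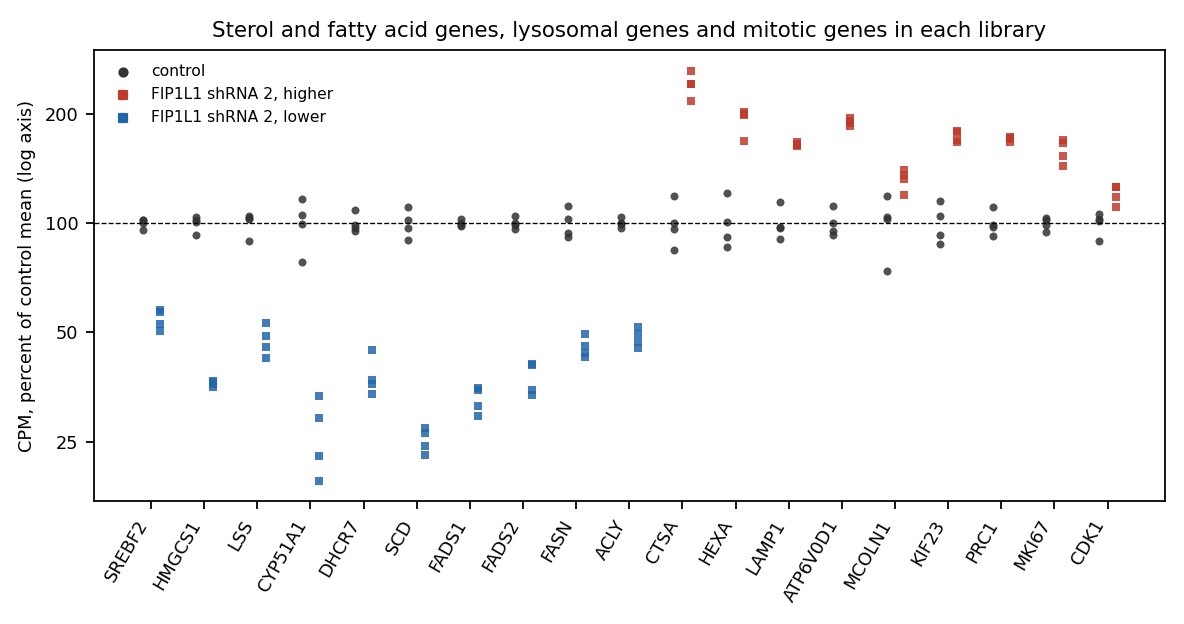
CPM of 19 genes in each library as a percent of the control mean (vertical log axis), with control libraries as dark circles and shRNA 2 libraries as coloured squares, red where the gene rose and blue where it fell. The 10 sterol and fatty acid genes on the left lie below the control in every shRNA 2 library, and the 5 lysosomal and 4 mitotic genes on the right lie above it.

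Carbon metabolism was lower at many steps. Of 24 glycolytic genes 14 were lower and 3 higher (median log2 change -0.28). LDHA, which turns pyruvate into lactate, fell from 1001 ± 54.9 to 512 ± 51.8 CPM (-0.97), ENO1 from 2274 ± 54.3 to 1436 ± 81.1 CPM (-0.66) and the lactate exporter SLC16A1 from 226 ± 16.1 to 114 ± 8.58 CPM (-0.99), while the muscle-type phosphofructokinase PFKM rose from 1.79 ± 0.754 to 5.56 ± 0.881 CPM (1.61). In glycogen metabolism the branching enzyme GBE1 fell from 311, 332, 285 and 299.5 CPM to 74.3, 74.3, 87 and 81.5 CPM (-1.95, edgeR adjusted p = 2.89e-20), the phosphorylase PYGB by 1.1 and the synthase GYS1 by 0.89. Of the 19 glycogen and pentose phosphate genes 11 were lower and 5 higher, beside the same 29.4% and 29.5%. The number higher was 3 when control replicate 1 or 4, or shRNA 2 replicate 1, 3 or 4, was left out.

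Genes of amino acid transport and metabolism showed the same lean. Among transporters 10 of 17 were lower and 4 higher, beside 29.4% and 29.5% of all tested genes. The leucine carrier SLC7A5 fell from 363 ± 26 to 213 ± 7.5 CPM (-0.77), the cystine carrier SLC7A11 by 1.2 and SLC43A1 by 1.15, and SLC7A8 rose by 1.06. In the branched-chain amino acid breakdown list, where BCAT1 is the entry, 10 of 20 were lower and 3 higher. The lower members included BCKDK, the kinase that holds the breakdown back, from 31.8 ± 1.72 to 15.5 ± 1.76 CPM (-1.03). The dehydrogenase HIBADH fell from 38 ± 5.22 to 15.6 ± 2.14 CPM (-1.28). The carboxylase subunit PCCB fell by 1.14 while its partner PCCA rose by 1.17. In serine and one-carbon metabolism 11 of 20 were lower and 5 higher, with SHMT2 down from 313 ± 23.2 to 195 ± 8.0 CPM (-0.68) and PAICS of purine synthesis from 362 ± 22.5 to 205 ± 7.21 CPM (-0.82). Of 18 stress genes under ATF4 6 were higher and 7 lower, near the 29.5% and 29.4% over all tested genes, and ATF4 itself fell by 0.51.

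Genes that feed or restrain mTORC1, the kinase complex that senses amino acids at the lysosome, leaned higher, with 19 of 37 higher and 7 lower. Over all tested genes 29.5% were higher and 29.4% lower. FNIP2 rose from 16.1 ± 2.03 to 38.5 ± 1.15 CPM (1.25) and FLCN, its partner, by 0.77. SESN2, a leucine sensor, rose by 1.06 and EIF4EBP2, a translation repressor under mTORC1, from 277 ± 6.15 to 547 ± 18.1 CPM (0.98). The related repressor gene EIF4EBP1 went the other way, from 123 ± 13.4 to 68.0 ± 3.26 CPM (-0.86). DEPTOR, an inhibitor bound to mTOR, fell from 112, 102, 116 and 113 CPM to 21, 18.3, 23.3 and 21.5 CPM (-2.4, edgeR adjusted p = 2.01e-20).

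Genes for making ribosomes and charging tRNAs were mostly lower. In ribosome biogenesis 22 of 24 tested genes were lower and 0 higher, with a median log2 change of -0.59 and a summed level of 5160 to 5540 CPM in the control libraries and 3450 to 3700 CPM with shRNA 2. RRP12, which acts in pre-ribosome export, fell from 70.1, 70.3, 72.3 and 66.3 CPM to 23.2, 22.5, 19.5 and 23.3 CPM (-1.66, edgeR adjusted p = 8.63e-17). The nucleolar proteins NCL and NPM1 fell from 862 ± 31.5 to 495 ± 23.2 CPM (-0.80) and from 1452 ± 57.6 to 939 ± 44.9 CPM (-0.63), and the rRNA methyltransferase FBL from 400.3 ± 39.9 to 224 ± 22.9 CPM (-0.84). Aminoacyl-tRNA synthetases and their scaffold proteins gave 19 of 23 lower and 0 higher (median log2 change -0.52): FARSB fell from 67.3 ± 6.8 to 29.4 ± 2.39 CPM (-1.2) and EPRS1 from 286 ± 12.2 to 139 ± 4.46 CPM (-1.04). Initiation factors were lower in 19 of 37 and higher in 3, with EIF2S1 from 102 ± 5.46 to 50.8 ± 4.49 CPM (-1.01) and the cap-binding relative EIF4E2 up by 0.72. Over all tested genes 29.4% were lower and 29.5% higher.

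Ribosomal proteins themselves changed less. Of 80 genes 42 were lower and 8 higher, the median log2 change was -0.16 and no member passed 2-fold. RPS10 had the largest fall, from 3.87 ± 1.01 to 1.98 ± 0.556 CPM (-0.95), and RPS23 the largest rise, from 102, 79.9, 109.9 and 80.8 CPM to 189, 165, 182 and 186 CPM (0.95). Ribosomal protein genes have many processed pseudogenes, so how reads were shared among copies bears on these values. Mitochondrial ribosomal proteins were lower in 36 of 71 and higher in 8, and nuclear genes of the respiratory chain lower in 21 of 48 and higher in 6 (11 without control replicate 3), with COX7C up from 57.6 ± 8.0 to 122 ± 7.07 CPM (1.07) and ATP5MC1 down from 66.4 ± 7.02 to 33.9 ± 0.599 CPM (-0.97). Genes of mitochondrial DNA stayed close to the control, with a median log2 change of -0.049. The light-strand gene MT-ND6 rose by 0.38.

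Chaperone genes, which fold new proteins, were lower in 23 of 28 and higher in 1 (2 without control replicate 1, control replicate 4 or shRNA 2 replicate 2), with a median log2 change of -0.49 and a summed level of 14500 to 16400 CPM in the control libraries and 9760 to 10700 CPM with shRNA 2. HSPA8, the constitutive heat shock protein, fell from 2623, 2581, 2873 and 2757 CPM to 1650, 1412, 1517 and 1629 CPM (-0.80, edgeR adjusted p = 2.74e-12). The mitochondrial chaperonin HSPD1 fell from 939 ± 51.2 to 487 ± 25.5 CPM (-0.95), HSP90AB1 from 2286 ± 122 to 1482 ± 77.7 CPM (-0.63), and the subunits of the CCT ring by 0.32 (TCP1) to 0.65 (CCT6A). The proteasome was lower in 16 of 33 genes and higher in 2 (4 without control replicate 3), with changes of at most 0.67 downward (PSMD7) and 0.93 upward (PSMA2). In the unfolded protein response 9 of 18 genes were higher and 6 lower, beside 29.5% and 29.4% of all tested genes. Among genes that host small nucleolar RNAs, GAS5 fell from 223, 236, 237 and 234 CPM to 124, 116, 127 and 112 CPM (-0.96), and 10 of 20 were lower and 4 higher.

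**Figure D4:**
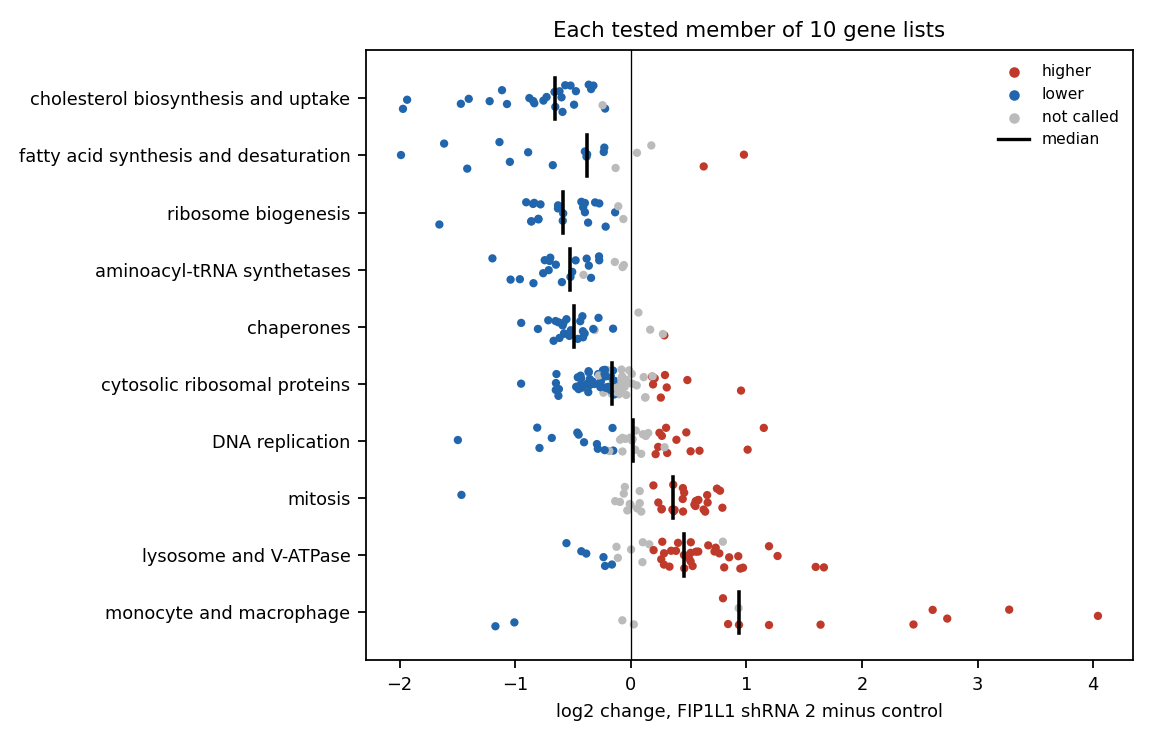
Log2 change of every tested member of 10 gene lists (horizontal axis), 1 point a gene, red where called higher, blue where called lower and grey where not called, with the list median as a black stroke. The sterol, ribosome biogenesis, synthetase and chaperone lists lie left of 0, the mitotic, lysosomal and monocyte lists lie mostly right of it, and DNA replication is centred near 0 with PCNA at its left end.

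The cell cycle genes did not move as a block. Mitotic genes were higher in 24 of 36 and lower in 1, with a median log2 change of 0.37. The midzone motor KIF23 rose from 59.5, 56.2, 67 and 73.7 CPM to 115, 107, 115 and 109 CPM (0.79, edgeR adjusted p = 7.23e-11), its partner PRC1 from 86 ± 6.79 to 147 ± 1.97 CPM (0.77), the proliferation marker MKI67 from 349.8 ± 13.7 to 554 ± 41.2 CPM (0.66) and the centromere histone CENPA by 0.64. CDK1 rose by 0.27, while TOP2A (-0.051) and CDC20 (-0.094) were not called. The member that fell was the spindle checkpoint gene MAD2L1, from 49.2, 52.3, 63.4 and 55.9 CPM to 20.4, 19.6, 23.1 and 16.7 CPM (-1.47, edgeR adjusted p = 2.07e-13). Of 39 DNA replication genes 12 were higher and 12 lower (median log2 change 0.016), shares close to the 29.5% and 29.4% over all tested genes. PCNA, the sliding clamp of DNA polymerases, fell from 126, 132, 142 and 138 CPM to 48.1, 50.1, 46.7 and 46.1 CPM (-1.5, edgeR adjusted p = 3.46e-18). With shRNA 1 PCNA was at 142 CPM, and the hairpins differed by -1.53 (SE 0.081, edgeR adjusted p = 2.17e-13). The ribonucleotide reductase subunit RRM2 rose from 203 ± 10.3 to 409 ± 12.9 CPM (1.01) and the cyclin gene CCNE2 from 8.24 ± 2.58 to 18.6 ± 1.31 CPM (1.15), while GINS2 and MCM6 of the replicative helicase fell by 0.79 and 0.46.

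Of 20 cell cycle inhibitors and G1 cyclins 9 were higher and 7 lower, beside 29.5% and 29.4% of all tested genes. CDKN1A, the inhibitor p21, rose from 4.92, 4.47, 3.59 and 4.1 CPM to 38.6, 41.3, 27.2 and 25.6 CPM (2.96, edgeR adjusted p = 2.6e-12), and CDKN2D, the inhibitor p19, from 1.88, 3.31, 3.13 and 1.24 CPM to 12.9, 14.2, 12.8 and 14.2 CPM (2.53, edgeR adjusted p = 2.81e-11). Cyclin D3, CCND3, rose from 27.1, 27, 25.5 and 29.4 CPM to 99.7, 103, 101 and 104 CPM (1.9, edgeR adjusted p = 2.03e-19), while CCND2 fell from 129 ± 14.9 to 70.1 ± 5.05 CPM (-0.88) and CCND1 from 71.7 ± 6.62 to 28.4 ± 0.442 CPM (-1.33). With shRNA 1 CCND3 was at 29.4 CPM and CDKN1A at 5.62 CPM. The hairpins differed by 1.85 at CCND3 and by 2.6 at CDKN1A (edgeR adjusted p = 9.13e-15 and 3.36e-08), and by 0.39 at CDKN2D, which did not pass (edgeR adjusted p = 0.176). The p53 target list had 9 of 21 higher and 5 lower, beside the same 29.5% and 29.4%. FAS and TP53INP1 rose by 1.15 and 1.28, and MDM2 and BBC3 fell by 0.80 and 1.23. In the BCL2 family, which sets the threshold for apoptosis, 9 of 16 were higher and 5 lower, and survival and killer genes each went both ways. The survival gene BCL2 fell from 136 ± 4.7 to 63 ± 1.87 CPM (-1.11), while MCL1, also a survival gene, rose from 198 ± 2.91 to 251 ± 5.49 CPM (0.34). The killer protein gene BCL2L11 rose from 29.5 ± 1.11 to 48.7 ± 2.74 CPM (0.72), while the killer gene BBC3 was lower, as given above.

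Replication-dependent histone genes were read at low levels. Most of their mRNAs are known to end in a stem-loop in place of a poly(A) tail, and the labels do not say how ribosomal RNA was depleted or poly(A) RNA chosen. Of 20 matched genes 6 passed the filter, with control means under 1 CPM for all 6, so genes high with shRNA 2 passed more easily and no direction is read for the group. Summed over the 6, levels were 0.579 to 2.06 CPM in the control libraries and 8.74 to 11.2 CPM with shRNA 2. H1-2 went from 0.145, 0, 0.399 and 0.27 CPM to 2.41, 2.29, 2.22 and 2.69 CPM, H2AC6 from 0.29, 0.165, 0.133 and 0 CPM to 2.05, 1.75, 2.86 and 1.79 CPM and H2BC12 from 0.724, 0.331, 0.865 and 0.702 CPM to 2.41, 2.29, 3.02 and 1.6 CPM. These 3 and H4C3 did not overlap between groups, which the filter favours. H2BC5 (0.24 and 0.828 CPM) and H2BC21 (0.246 and 0.706 CPM) did overlap. H2BC21 was not called (edgeR adjusted p = 0.0501). Histone genes share long stretches of sequence, so reads may be divided among copies. The stem-loop is shown because it is the known processing signal of replication-dependent histone mRNAs. Whether the reads came from transcripts that end at it or run beyond it was not tested. A search by the known stem-loop pattern found it in GENCODE 29 transcripts of H2AC6, H2BC5 and H2BC21, in capitals below with 5 bases on each side, and the annotated transcripts run on for at least 1114, 39 and 1729 bases beyond it.
H2AC6 (chromosome 6, plus strand): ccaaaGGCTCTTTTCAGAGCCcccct
H2BC5 (chromosome 6, plus strand): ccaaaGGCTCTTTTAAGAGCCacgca
H2BC21 (chromosome 1, minus strand): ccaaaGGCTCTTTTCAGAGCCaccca

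Iron genes gave another contrast. The haem oxygenase HMOX1 rose from 0.579, 0.248, 0.466 and 0.756 CPM to 4.61, 5.25, 3.39 and 2.82 CPM (2.91, edgeR adjusted p = 2.1e-08), the ferritin light chain FTL by 0.44 and the iron sensor FBXL5 by 0.72, while the transferrin receptors TFRC and TFR2 fell by 0.55 and 0.85. In all 9 of 16 were higher and 6 lower, beside 29.5% and 29.4% of all tested genes. HMOX1 was under 1 CPM in every control library, and the filter can favour members that are high in 1 group.

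**Figure D5:**
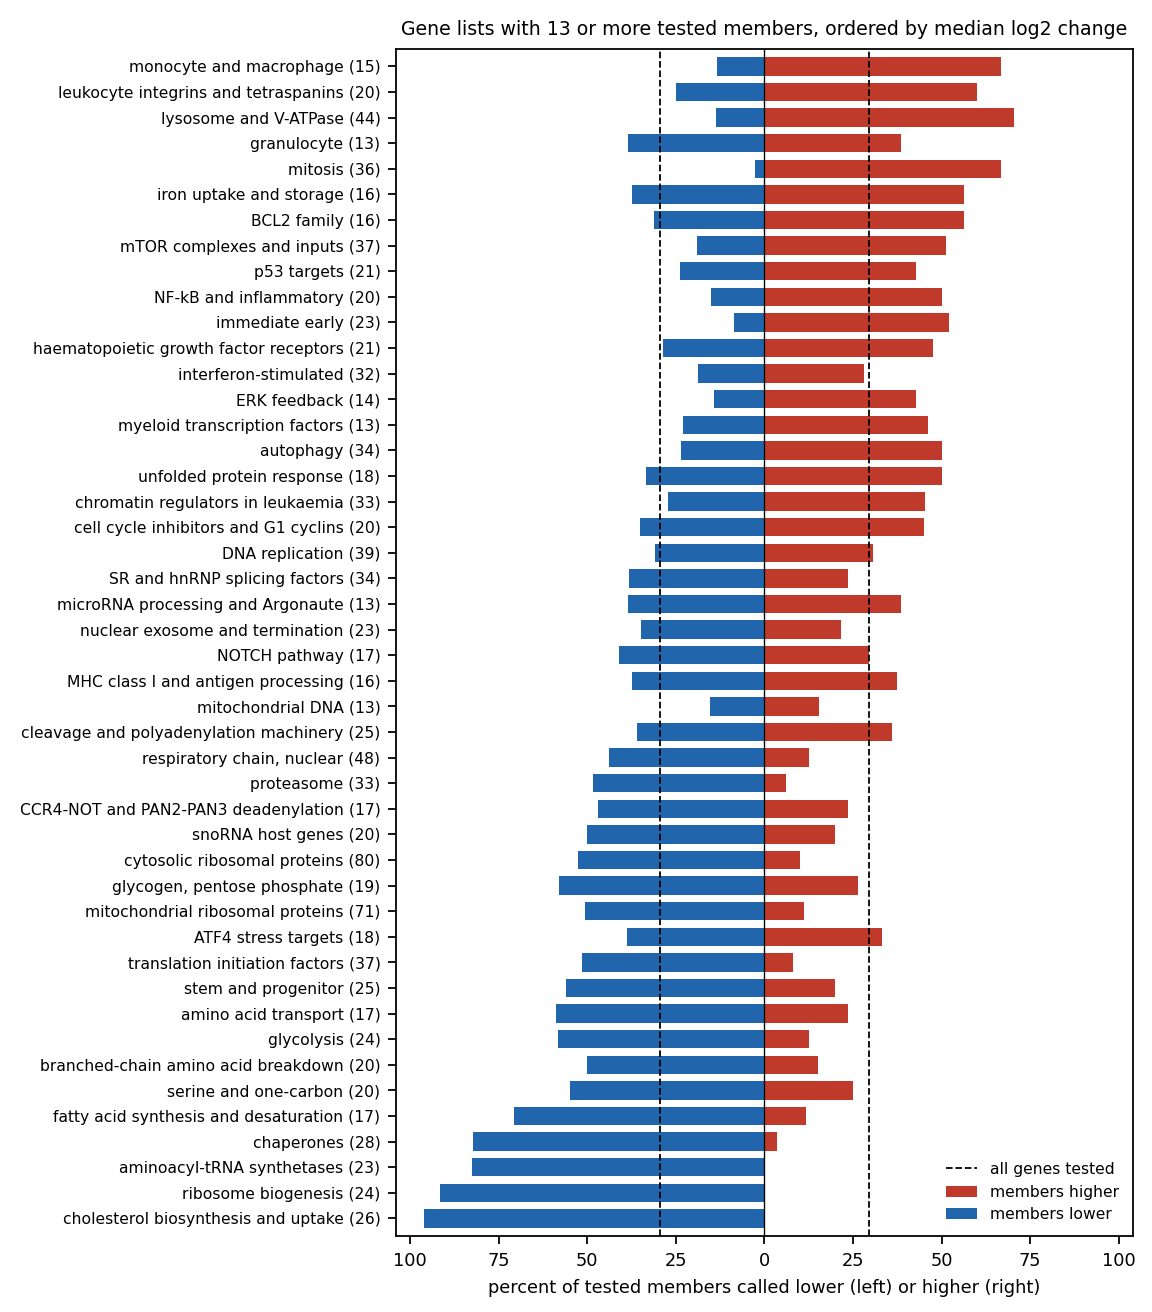
Percent of tested members called higher (red, to the right) and lower (blue, to the left) for each gene list with 13 or more tested members, with the number tested in brackets and lists ordered by median log2 change. The dashed lines mark 29.5% higher and 29.4% lower over all genes tested, and the sterol list at the bottom reaches 25 of 26 members lower.

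Some genes were read in 1 group only. ANKRD65 had no count in any control library and 15, 25, 23 and 24 counts in the shRNA 2 libraries, at least 25.3-fold higher against a floor of 3 counts over the control group. TRPV6, a calcium channel gene, had 0 counts in the control and 20 to 22 with shRNA 2 (at least 24.1-fold higher). MS4A3, a tetraspan protein of granulocyte and monocyte progenitors, had 0 in the control and 7, 8, 14 and 17 counts with shRNA 2 (at least 13.4-fold higher). In the other direction the pseudogene RPL7AP28 had 37, 52, 33 and 56 counts in the control and none with shRNA 2 (at least 68.1-fold lower), and as a copy of a ribosomal protein gene it may share reads with its relatives. A2M, which encodes a protease inhibitor of plasma, had 5, 11, 1 and 15 counts in the control and none with shRNA 2 (at least 12.2-fold lower). Intervals and floors of this kind cover counting error only.

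Neighbouring genes were compared next. Among tested genes that neighbour each other on the same strand within 5 kb, 560 pairs had both genes called, and 347 of them (62.0%) moved in the same direction. The share was 51.7% of 908 pairs at 5 to 50 kb and 52.5% of 768 pairs over 50 kb apart. Convergent pairs within 5 kb gave 54.2% of 325 and divergent pairs 56.6% of 290. These shares are descriptions over pairs that share genes.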

How the data were processed

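RNA-seq libraries of Kasumi-1 cells were compared between 4 control and 4 FIP1L1 shRNA 2 libraries. The deposited table holds raw read counts per Ensembl gene, made by the authors and not normalized, as its whole numbers with unequal totals show. The submitters' processing notes name build hg19, cutadapt 2.6, STAR 2.7.3a and DESeq2 with no roles. The sources used here name no counting tool, annotation or strand setting. The shRNA 1 libraries entered only the test between hairpins, and the deposited table of poly(A) site clusters was not used.

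Genes were filtered with filterByExpr, scaled by TMM and fitted by edgeR 4.0.16 in R 4.3.3 (glmQLFit, robust, 6 residual degrees of freedom, quasi-likelihood F test), with Benjamini-Hochberg adjustment over 14931 genes and a threshold of 0.05. The fit was run on simulated counts with few changed genes and the same spread for every gene. That setting differs from these data and does not test error rates here. Fold changes are shRNA 2 minus control. Replicates of a group differed by more than counting noise (chi-square per degree of freedom 3.77 to 7.9), so each counted as 1 sample. Symbols came from the Ensembl IDs, through a gene name table and GENCODE 29, for 45342 of 48162 IDs. Printed gene positions are GRCh38, not the authors' build.

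Named genes were FIP1L1, the 10 largest called rises and falls without overlap at a mean of 5 CPM or more, the next 6 each way at 200 CPM or more, and, in each of 54 gene lists, its key members and its largest called changes at 1 CPM or more. The 62 printed genes outside that rule were chosen after their values were seen, most of them as other members of the same lists: ACLY, ANKRD65, ATP6V0D1, ATP6V1A, ATP6V1G1, BIRC3, CCND3, CCT6A, CD53, CDC20, CENPA, CLDN5, CTSS, DHCR7, DHRS4-AS1, EIF4EBP2, ELOVL6, ENO1, FAS, FDPS, FLCN, FLT3, FTL, GAA, GINS2, GRN, GYS1, H2BC12, H2BC5, HEXA, HLA-B, HLA-E, HOXA10, HSD17B7, HSP90AB1, IDI1, JPH4, KLF10, LIPA, LSS, MCM6, MCOLN1, MKI67, MSMO1, MVD, MYB, NPM1, PCCB, PSAP, PYGB, RBPJ, RPL7AP28, SLC43A1, SOX4, SPRED2, SYK, TAP2, TCP1, TFE3, TNRC6B, TOP2A and TRPV6. Some genes that the rule names are not reported here. A2M and MS4A3, which did not pass the filter, were chosen in the same way. NRARP and HEYL were also named after their values were seen, beside HES1. Members and lists were chosen with earlier results of these data known. Of 1453 list entries 1408 matched an ID. Alternatives were other scalings, filters, DESeq2 1.42.0, a 12-library fit, a replicate block, a fit without robust estimation and leaving out each library.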

Additional observations from a re-analysis of the deposited data

Results flagged for a closer look

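In 27 of 464 groups of 4 libraries (232 named genes, 2 groups each), 1 library stood apart from the other 3 by Dixon's criterion, and chance flags about 1 group in 20. All values are CPM. Control replicate 1 had RABL6 at 153 (above the others at 124 to 127). Control replicate 3 had SLC16A1 at 250 (above the others at 215 to 221), SLC43A1 at 161 (above the others at 143 to 146) and TP53INP1 at 2.53 (below the others at 5.14 to 5.62). Control replicate 4 had EIF2S1 at 94.4 (below the others at 104 to 106), FCGR1A at 26.9 (below the others at 29.2 to 29.6), H2BC5 at 0.81 (above the others at 0 to 0.0827), LSS at 132 (below the others at 152 to 155), NOTCH3 at 11.3 (below the others at 18 to 18.8) and SLC7A5 at 325 (below the others at 371 to 380). In shRNA 2 replicate 1 the values were HEXA at 22 (below the others at 25.9 to 26.3), PAICS at 216 (above the others at 200 to 203), SLA at 18.9 (below the others at 21.3 to 21.3) and SLC7A11 at 4.05 (above the others at 2.79 to 2.96). In shRNA 2 replicate 2 the values were CILP2 at 36.4 (above the others at 29 to 29.7), FARSB at 25.8 (below the others at 30.2 to 30.8) and ITGAV at 50.4 (below the others at 51.4 to 51.6). In shRNA 2 replicate 3 the values were ATF4 at 201 (above the others at 181 to 182), PYGB at 207 (below the others at 219 to 222) and SCD5 at 50.4 (below the others at 53.4 to 53.8). In shRNA 2 replicate 4 the values were IL6R at 17 (below the others at 18.2 to 18.4), ITGA4 at 89.9 (below the others at 98.7 to 99.1), LGALS1 at 10.8 (below the others at 15.5 to 16.4), RBBP6 at 103 (below the others at 106 to 106), SPRED2 at 53.5 (above the others at 50.5 to 51), TAP2 at 30.7 (above the others at 25.7 to 26.6) and XPO5 at 169 (above the others at 163 to 164).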

How the results depend on the processing

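All 5 main results, the number of genes higher and lower, the same at 2-fold or more, and the FIP1L1 change, kept their direction and stayed within 1.5 times under every alternative run. Genes higher ranged from 3911 (12 libraries in 1 fit) to 5175 (library totals alone), and leaving out 1 library in turn gave 4111 to 4407 higher and 4110 to 4354 lower, with a FIP1L1 change of -1.11 to -1.05. Library totals alone moved the median of all genes by 0.0824 and the share of calls that were higher from 50.1% to 58.4%, with 3688 lower. The replicate numbers share no stated source. Same-numbered deviations correlated at -0.0362, 0.12, 0.00996 and -0.00898, and no pairing was assumed. Some genes did split by replicate number in both groups. Beside HLA-DRA and HLA-DRB1, the genes CIITA, HLA-DPA1 and HLA-DPB1 had replicates 1 and 2 above replicates 3 and 4, and ELANE had them below. Whether equal numbers share a batch was not tested. With the replicate block 4393 genes were higher and 4316 lower, 1120 and 925 at 2-fold or more, FIP1L1 changed by -1.08, and 8 MHC class II genes were higher and 1 lower, in place of 5 and none.

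Genes close to 0 and not called changed sign. TOP2A was 0.0309 under library totals. DHRS4-AS1 was 0.0843 under library totals, 0.00901 without a filter, 0.0017 at 1 CPM or more in 4 libraries, 0.00089 in DESeq2 and 0.00063 with the replicate block, and -0.17 to 0.10 over the leave-one-out fits. Over the leave-one-out fits JPH4 ran from -0.13 to 0.34 and KIT from -0.0213 to 0.0296. Of 108 list counts, library totals moved 11 by more than 1.5 times and the 12-library fit 14. Under library totals the members higher were 7 in the proteasome, 4 among chaperones, 10 in the respiratory chain, 5 in glycolysis and 5 among initiation factors. In the 12-library fit 3 cytosolic ribosomal proteins and 3 myeloid factors were higher. The causes were not tested.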
